A study of Mus musculus with 16 samples.

Results

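The genes described here are 10 genes of antibody recognition and of macrophages, chosen by symbol from the 19439 genes in the files: the Fc gamma receptor genes Fcgr1, Fcgr2b, Fcgr3 and Fcgr4, their signalling chain Fcer1g, and the myeloid or macrophage markers Itgam, Adgre1, Csf1r, Cd68 and Ms4a7. All 10 were found in each of the 16 libraries and all 10 passed the filter on low counts, which left 15782 genes for testing. The libraries came from the ears of 16 BALB/c mice, 8 weeks old. Imiquimod (IMQ), an activator of immune cells that inflames mouse skin in a way that resembles psoriasis, was applied to all of them. On top of it, mice received daily intradermal injections, planned for 6 days, of 10 µl lysophosphatidylcholine (LPC, 10 mM) or of 10 µl saline (vehicle). Skin was collected from 4 LPC mice and 4 vehicle mice at day 4, and from as many at day 7, which gives 4 groups of 4 mice. Days are those of the sample titles and the design text; the deposited files are named for days 3 and 6 instead. Because every mouse received imiquimod, no comparison below is with untreated skin.

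Fc gamma receptors are surface proteins of leukocytes that bind the constant part of IgG antibodies on coated particles, cells and immune complexes. The activating receptors signal through the gamma chain encoded by Fcer1g, which carries tyrosine motifs that recruit the kinase Syk and set off phagocytosis, oxidant release and cytokine production. The inhibitory receptor encoded by Fcgr2b carries its own motif, which recruits the phosphatase encoded by Inpp5d and dampens these signals. Macrophages carry all of these receptors, neutrophils most of them, NK cells mainly Fcgr3, and B cells only Fcgr2b. Adgre1, Csf1r, Cd68 and Ms4a7 are used as macrophage markers, whereas Itgam is shared by macrophages, monocytes, neutrophils and NK cells.

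Expected counts summed to between 18704197 and 20131513 per library. Single members had between 25 and 4140 expected counts in a library. Keratinocyte markers were abundant in all 16 libraries, with a mean log2 CPM (counts scaled to library size) of the 10 markers between 10.05 and 11.12. The LPC day 7 libraries stood apart from each other. In mice 2 and 4 of that group the mean log2 CPM of 15 skeletal muscle genes was 9.29 and 9.82, against 5.13 and 3.69 in mice 1 and 3, and adipocyte genes were also higher in mice 2 and 4.

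Mean levels were highest in LPC day 7 skin for every member but Csf1r, and lowest in LPC day 4 skin for every member but Fcgr2b and Cd68. With LPC at day 7, Fcgr3, Fcer1g and Itgam rose, 3 of 10 members, when 2.38% of all genes tested rose, 1.44% fell and 3.83% were called in either direction. Fcgr4 had the largest fold change, without passing the test. The macrophage markers Adgre1, Csf1r, Cd68 and Ms4a7 did not pass it either, and for all of these but Cd68 the LPC day 7 values ran from below the lowest to above the highest vehicle mouse. At day 4 no member was called, against 0.139% of all genes (0.095% rose and 0.0444% fell). A gene was called when the edgeR quasi-likelihood test gave a Benjamini-Hochberg adjusted p below 0.05 over 15782 genes. In whole tissue, more cells of a type and more RNA per cell cannot be told apart.

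**Figure D1:**
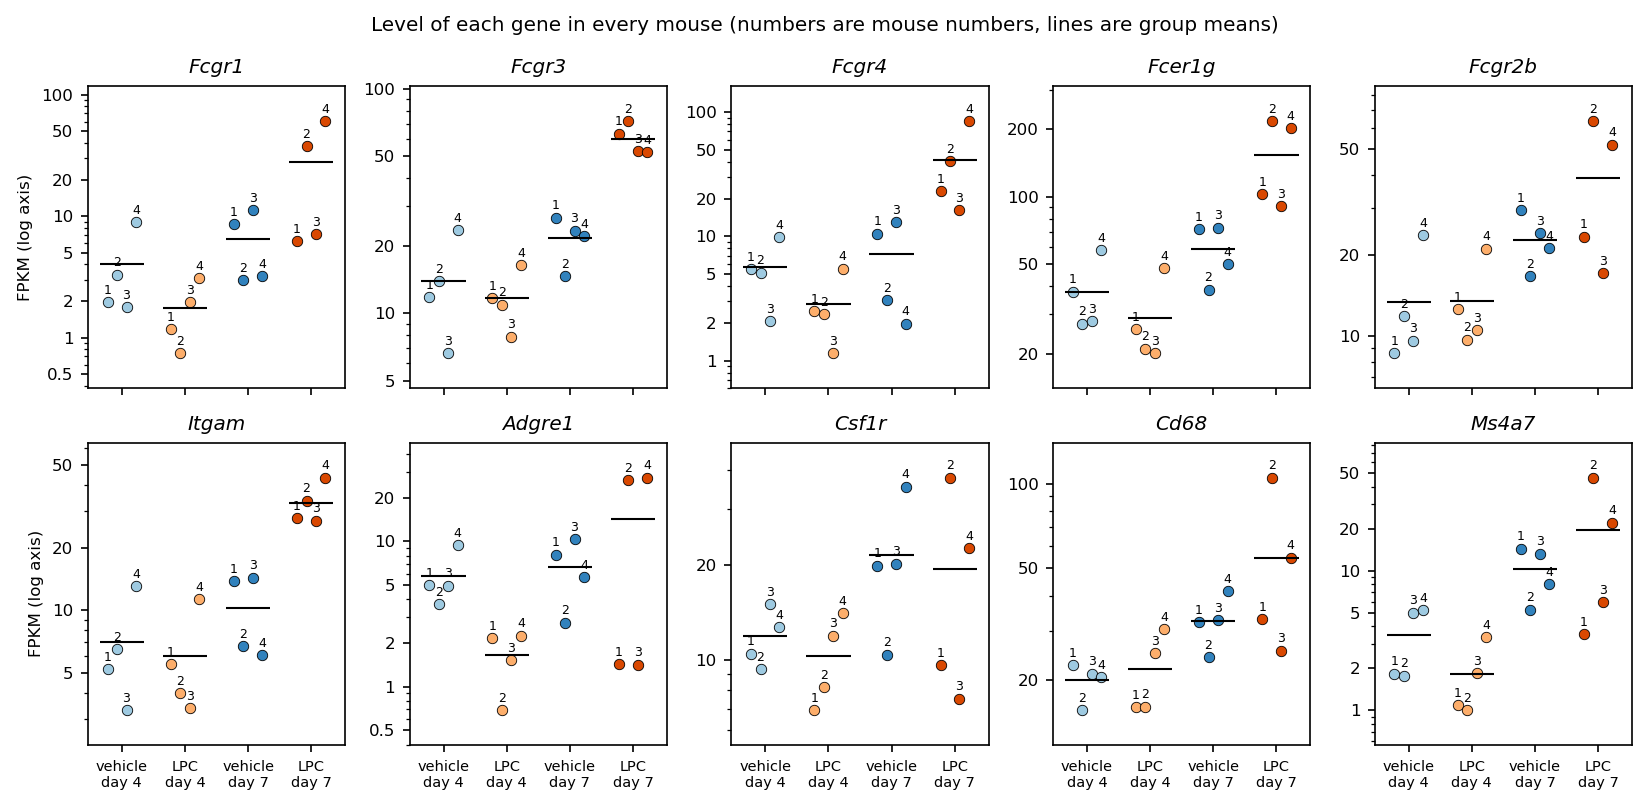
FPKM (fragments scaled to transcript length and library size, log axis) of each of the 10 genes in every mouse, with a line at each group's mean and the mouse number above each point. All 4 LPC day 7 mice lie above all vehicle day 7 mice for Fcgr3, Fcgr4, Fcer1g and Itgam, whereas for Adgre1 mice 2 and 4 lie above and mice 1 and 3 below them.

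Of the 10 genes, 4 lie within 274 kb of mouse chromosome 1 (build GRCm38, RefSeq annotation). From low to high coordinate these are Fcgr2b (170960558 to 170976071, minus strand), Fcgr4 (171018926 to 171029761, plus strand), Fcgr3 (171051169 to 171065915, minus strand) and Fcer1g (171229572 to 171234349, minus strand). Fcgr1 lies on chromosome 3 (96282909 to 96293969, minus strand), Itgam on chromosome 7 (128062640 to 128118491, plus strand), Cd68 on chromosome 11 (69664213 to 69666170, minus strand), Adgre1 on chromosome 17 (57358581 to 57483529, plus strand) and Ms4a7 on chromosome 19 (11321039 to 11336146, minus strand).

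RefSeq promoter windows on GRCm38.p6, 250 bases before to 50 after the start of a transcript, were found for 8 of the 10 members, all except Adgre1 and Csf1r. The windows of the 4 genes whose LPC and vehicle mice did not overlap at day 7 are shown, with that of Fcgr1, a gene known to respond to interferon gamma. Capitals mark matches to the letters GAGGAA or GAGGAAGT (the core bound by PU.1, a transcription factor of myeloid cells), TTCNNNGAA or its form with a 4-base spacer (sites of the STAT kind, as used by interferon gamma) and TTGCNNAA (C/EBP), on either strand.
Fcgr1 chr3:96293920-96294219 (-): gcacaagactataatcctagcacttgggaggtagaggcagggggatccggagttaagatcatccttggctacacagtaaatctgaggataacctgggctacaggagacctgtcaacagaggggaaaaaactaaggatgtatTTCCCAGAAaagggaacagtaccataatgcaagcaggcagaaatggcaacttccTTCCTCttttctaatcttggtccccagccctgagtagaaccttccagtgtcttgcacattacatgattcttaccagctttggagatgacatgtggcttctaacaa
Fcgr3 chr1:171059354-171059653 (-): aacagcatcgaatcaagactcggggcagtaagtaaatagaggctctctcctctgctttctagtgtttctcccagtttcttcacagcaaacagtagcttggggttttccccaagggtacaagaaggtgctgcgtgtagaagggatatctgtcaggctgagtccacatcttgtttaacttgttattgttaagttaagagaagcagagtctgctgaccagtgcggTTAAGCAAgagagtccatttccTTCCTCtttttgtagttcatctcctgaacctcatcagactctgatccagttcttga
Fcgr4 chr1:171018676-171018975 (+): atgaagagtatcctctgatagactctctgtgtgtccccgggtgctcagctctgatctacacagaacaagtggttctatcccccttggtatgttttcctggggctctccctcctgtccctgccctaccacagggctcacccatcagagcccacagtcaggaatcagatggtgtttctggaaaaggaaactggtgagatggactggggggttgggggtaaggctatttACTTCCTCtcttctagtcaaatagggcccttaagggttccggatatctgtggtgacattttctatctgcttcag
Fcer1g chr1:171234300-171234599 (-): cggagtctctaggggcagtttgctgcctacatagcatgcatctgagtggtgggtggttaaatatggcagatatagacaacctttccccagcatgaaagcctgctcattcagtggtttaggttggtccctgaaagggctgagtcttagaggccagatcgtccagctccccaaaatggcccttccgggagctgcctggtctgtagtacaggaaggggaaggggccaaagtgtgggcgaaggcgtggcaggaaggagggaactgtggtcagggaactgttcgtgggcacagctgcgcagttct
Itgam chr7:128062390-128062689 (+): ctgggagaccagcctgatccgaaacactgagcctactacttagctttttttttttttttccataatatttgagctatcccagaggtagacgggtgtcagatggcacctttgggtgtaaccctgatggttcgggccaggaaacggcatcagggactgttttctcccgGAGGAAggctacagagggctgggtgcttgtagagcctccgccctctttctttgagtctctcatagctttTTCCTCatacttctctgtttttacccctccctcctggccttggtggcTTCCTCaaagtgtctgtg

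The short letters GAGGAA occurred in a window of 6 of the 8 members, Cd68, Fcgr1, Fcgr3, Fcgr4, Itgam and Ms4a7, and in 28.3% of 32851 mouse promoter windows of this length. A member was counted when any of its windows matched, whereas the percentages here are of single windows. Fcgr3 has an additional window, overlapping the printed window, and Ms4a7 an additional window without a match. Both Fcgr3 windows lie inside the span given above for this gene, which runs to 171065915. They describe starts within that span only, and no window at its outer end was among those used. Itgam held them at 3 places. The longer GAGGAAGT, which contains the short letters, occurred in Fcgr4 alone among the members and in 3.2% of all windows. It lay on the opposite strand and is read there as ACTTCCTC, with its first base 24 bases before the transcript start. Fcgr1 held TTCCCAGAA, a match to TTCNNNGAA (8.3% of all windows), 109 bases before its start. Ms4a7 held TTCCGGGGAA, a match to the form with a 4-base spacer (6.95%), 13 bases before the more upstream of its starts. Fcgr3 and Cd68 held a match to TTGCNNAA (10.8%), in Fcgr3 read as TTAAGCAA. No search pattern matched in the windows of Fcer1g and Fcgr2b. A match describes the letters of these windows only.

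The activating receptors come first. Fcgr3 encodes a low-affinity activating receptor. Its FPKM in mice 1 to 4 was 11.8, 13.9, 6.63 and 23.4 with vehicle and 11.7, 10.9, 7.88 and 16.4 with LPC at day 4. At day 7 it was 26.7, 14.7, 23.3 and 22.0 with vehicle and 63.2, 72.0, 52.7 and 52.1 with LPC. The LPC day 7 mice formed a tight group far above all other 12 mice, whereas the day 4 groups overlapped. With LPC at day 7, Fcgr3 rose over vehicle by 1.57 ± 0.32 (log2 fold change ± SE, the SE here and below derived from edgeR's F statistic, adjusted p = 0.0217). From day 4 to day 7 under LPC it rose by 2.47 ± 0.33 (adjusted p = 0.00315), and under vehicle the difference was 0.69 ± 0.32 (adjusted p = 0.38). The LPC effect at day 7 was no longer called without vehicle day 7 mouse 2 (adjusted p = 0.0604), mouse 3 (0.0517) or mouse 4 (0.0672), or without LPC day 7 mouse 1 (0.0603), with a log2 fold change of at least 1.42 each time.

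Fcgr4 encodes an activating receptor of intermediate affinity found on neutrophils, monocytes and macrophages. At day 4 its FPKM was 5.45, 5.11, 2.07 and 9.91 with vehicle and 2.51, 2.36, 1.14 and 5.51 with LPC. At day 7 it was 10.49, 3.05, 13.1 and 1.98 with vehicle and 23.0, 40.5, 16.3 and 85.2 with LPC. The lowest LPC day 7 mouse was thus above the highest vehicle mouse, but each group spanned a wide range. The log2 fold change of 2.59 ± 0.70 at day 7, the largest of the 10 members, gave an adjusted p of 0.0522, just above the threshold. With median-of-ratios scaling in place of TMM the adjusted p was 0.0496, with DESeq2 0.00203 and with limma on log2(FPKM + 0.1) 0.0488. In all, 5 of 10 other settings called it, with adjusted p up to 0.138. Under LPC Fcgr4 rose from day 4 to day 7 by 3.94 ± 0.75 (adjusted p = 0.00843). The vehicle mice differed by 0.41 ± 0.67 between the days (adjusted p = 0.829).

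Fcgr1 encodes the high-affinity receptor, which binds single IgG molecules. Its FPKM at day 4 was 1.96, 3.29, 1.79 and 8.96 with vehicle and 1.17, 0.74, 1.96 and 3.08 with LPC. At day 7 it was 8.61, 2.96, 11.2 and 3.19 with vehicle and 6.19, 37.7, 7.08 and 60.9 with LPC. LPC day 7 mice 2 and 4 were the highest of all 16 mice, while mice 1 and 3 lay inside the vehicle range. The LPC effect at day 7 was 2.15 ± 0.76 in log2 terms (adjusted p = 0.125), and 2 of 10 other settings called it, DESeq2 (adjusted p = 0.0255) and the muscle covariate (0.0304), with adjusted p up to 0.3 in the rest. Between the days under LPC, Fcgr1 rose by 4.08 ± 0.83 (adjusted p = 0.0114), the largest of the members' day effects.

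Fcer1g, the signalling chain of these receptors and of the high-affinity IgE receptor, had the highest FPKM of the 10 genes in every group. At day 4 it stood at 37.9, 27.2, 28.0 and 58.0 FPKM with vehicle and at 25.8, 21.1, 20.1 and 48.2 with LPC. At day 7 the values were 71.9, 38.6, 73.0 and 50.03 with vehicle and 103, 218, 91.1 and 201 with LPC. Mice 2 and 4 of LPC day 7 were about level and high, and mice 1 and 3 still exceeded all vehicle mice. Fcer1g rose with LPC at day 7 by 1.47 ± 0.36 (log2, adjusted p = 0.0389) and between the days under LPC by 2.51 ± 0.38 (adjusted p = 0.00322). The call at day 7 was kept only without LPC day 7 mouse 3 (adjusted p = 0.0356). Leaving out any 1 of the other 7 mice gave adjusted p from 0.0522 to 0.122, with log2 fold changes from 1.29 to 1.61. Of 10 other settings 5 called it, with adjusted p up to 0.0837.

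Fcgr2b encodes the inhibitory receptor. Its FPKM at day 4 was 8.59, 11.8, 9.59 and 23.8 with vehicle and 12.6, 9.67, 10.51 and 21.2 with LPC. At day 7 it was 29.6, 16.8, 24.2 and 21.2 with vehicle and 23.5, 63.8, 17.1 and 52.0 with LPC. As for Fcgr1, LPC day 7 mice 2 and 4 were high and mice 1 and 3 inside the vehicle range. The LPC effect was 0.84 ± 0.40 at day 7 (adjusted p = 0.262) and 0.05 ± 0.40 at day 4 (adjusted p = 0.959). Fcgr2b rose between the days under LPC by 1.63 ± 0.41 (adjusted p = 0.0254). That call was lost without LPC day 4 mouse 1 (adjusted p = 0.0598), mouse 2 (0.0793) or mouse 3 (0.0778), and without LPC day 7 mouse 2 (0.0724) or mouse 4 (0.0561). It was also lost in a fit of only the groups compared (0.0584) and with the muscle covariate (0.0734).

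The 4 receptors together summed to 116, 214, 93.2 and 250 FPKM in LPC day 7 mice 1 to 4, against 37.5 to 75.4 FPKM in vehicle day 7 mice, 20.1 to 66.1 in vehicle day 4 mice and 21.5 to 46.2 in LPC day 4 mice. The inhibitory receptor made up 20.3%, 29.8%, 18.4% and 20.8% of that sum in LPC day 7 mice 1 to 4. In the other 12 mice its share was never under 30.9% and reached 48.9%. What filled the rest differed between the LPC day 7 mice. In mice 1 and 3 Fcgr3 took 54.5% and 56.6%, more than in any other mouse, and Fcgr1 only 5.34% and 7.6%. In mouse 4 Fcgr4 took 34.1% and Fcgr1 24.3%, both the highest of the 16 mice, and Fcgr3 20.8%, the lowest.

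The ratio of Fcgr2b to Fcgr3 FPKM was 1.11, 1.14, 1.04 and 0.965 in vehicle day 7 mice 1 to 4, 0.730 to 1.45 in vehicle day 4 mice and 0.886 to 1.33 in LPC day 4 mice. In LPC day 7 mice it was 0.372, 0.887, 0.325 and 0.998. Mice 1 and 3 thus had far more Fcgr3 than Fcgr2b per length, and mice 2 and 4 were near parity. The ratios and shares are given without a test. Fcgr3 and Fcgr2b share identical stretches of sequence. In the GENCODE annotation 166 of 1733 windows of 50 bases in Fcgr3 transcripts (9.58%) also occur in Fcgr2b. The deposited counts of both genes were not whole in any of the 16 libraries. Counts of Csf1r were not whole in 14 of 16 libraries either, although 0 of its windows occurred in another gene. Counts that are not whole thus do not by themselves show that reads were divided between Fcgr3 and Fcgr2b. Because of the shared stretches, the ratio is less certain than either sum.

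**Figure D2:**
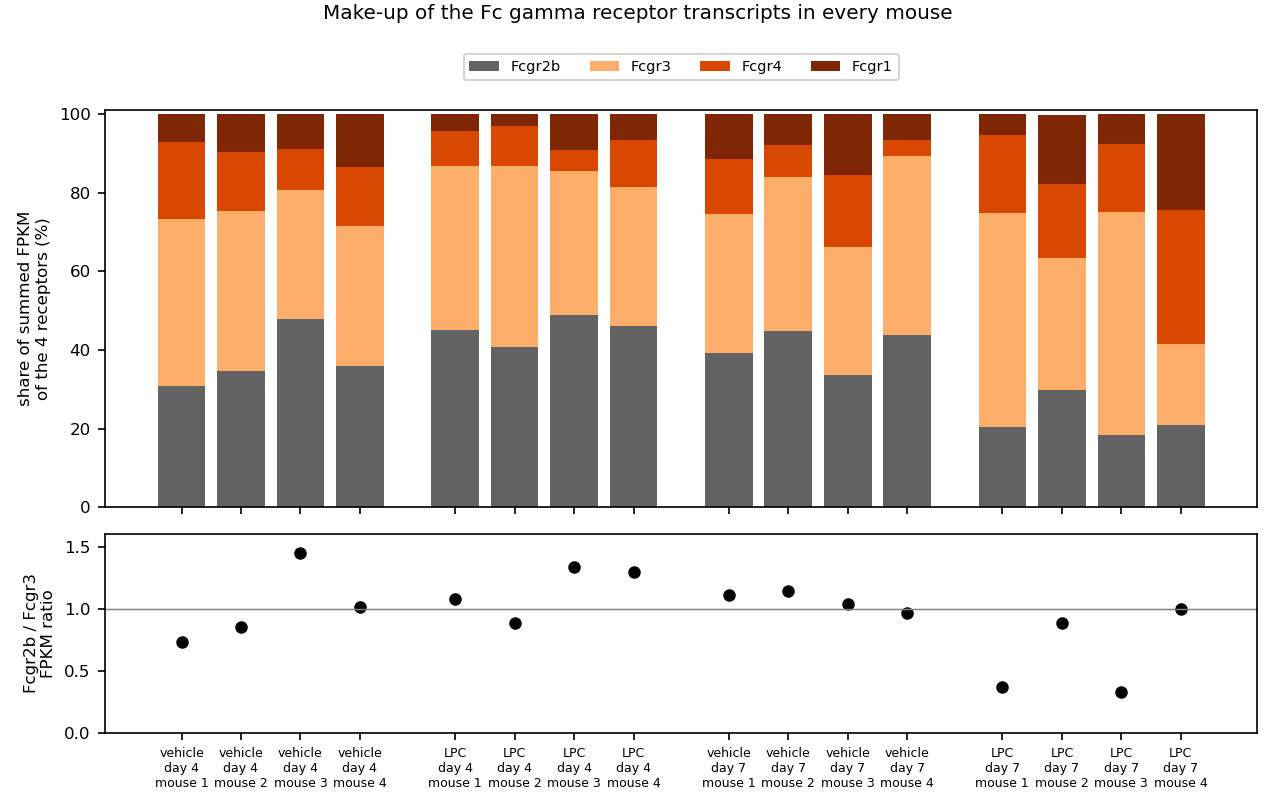
Top, share of each Fc gamma receptor gene in the summed FPKM of the 4 receptor genes (percent, stacked bars, 1 bar per mouse). Bottom, ratio of Fcgr2b to Fcgr3 FPKM per mouse, with a line at 1; LPC day 7 mice 1 and 3 lie at 0.372 and 0.325, and all other mice at 0.730 or above.

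Among the marker genes, Itgam lay closest to the activating receptors in its values. It encodes the integrin chain CD11b, which pairs with the product of Itgb2 to form complement receptor 3. FPKM at day 4 was 5.22, 6.48, 3.31 and 13.1 with vehicle and 5.51, 4.00, 3.38 and 11.3 with LPC. Day 7 values were 13.8, 6.72, 14.3 and 6.09 with vehicle and 27.7, 33.6, 26.9 and 43.4 with LPC. The lowest LPC day 7 mouse was well above the highest vehicle mouse. Itgam rose with LPC at day 7 by 1.77 ± 0.46 (log2, adjusted p = 0.0455) and between the days under LPC by 2.56 ± 0.47 (adjusted p = 0.0073). The first of these calls was lost without any 1 of the 8 mice compared, with adjusted p from 0.0566 to 0.14 and log2 fold changes from 1.57 to 1.99. Of 10 other settings 6 called it, with adjusted p up to 0.116. In the GENCODE annotation 66.3% of Itgam's windows of 50 bases also occur in the gene model Gm49368, which the files used here do not list. Counts of Itgam were not whole in any library. How its reads were divided is not stated in the labels, so its level is less certain.

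Adgre1, which encodes an adhesion G protein-coupled receptor of mature macrophages and Langerhans cells, split the LPC day 7 group. At day 4 its FPKM was 5.01, 3.71, 4.97 and 9.47 with vehicle and 2.16, 0.69, 1.52 and 2.25 with LPC. All 4 LPC mice were below all vehicle mice, 1 of 10 members to separate at that day, when 16.1% of all genes tested did so in either direction and 7.42% with LPC higher. At day 7 the values were 8.11, 2.76, 10.3 and 5.66 with vehicle and 1.43, 26.5, 1.42 and 27.6 with LPC. LPC day 7 mice 2 and 4 had the highest and mice 1 and 3 among the lowest Adgre1 levels of all 16 mice. The LPC effect was -1.73 ± 0.81 at day 4 (adjusted p = 0.258) and 1.14 ± 0.78 at day 7 (adjusted p = 0.464).

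From day 4 to day 7 under LPC, Adgre1 rose by 3.16 ± 0.85 (log2, adjusted p = 0.0314), although mice 1 and 3 of LPC day 7 lay inside the LPC day 4 range. It was not called without mouse 2 (adjusted p = 0.0753) or mouse 4 (0.0728) of LPC day 7, nor without mouse 1 (0.0624), mouse 2 (0.0914) or mouse 3 (0.086) of LPC day 4. Of 10 other settings 4 called it, and log2 fold changes ran from 1.163 to 3.181 with adjusted p up to 0.232. The call was lost with limma-voom, with limma on FPKM under both pseudocounts, in a fit of only the groups compared, with the muscle covariate and with the replicate block. At day 4, a fit of only the 2 groups compared called Adgre1 as lower with LPC (-1.78, adjusted p = 0.0316). That fit called 8.67% of all genes in either direction. With the muscle score as a covariate the day 4 value was 0.48 (adjusted p = 0.924).

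Csf1r encodes the receptor of colony stimulating factor 1, on which macrophage survival depends. FPKM at day 4 was 10.4, 9.33, 15.0 and 12.7 with vehicle and 6.92, 8.17, 11.9 and 14.1 with LPC. Day 7 values were 19.8, 10.4, 20.1 and 35.3 with vehicle and 9.60, 37.7, 7.52 and 22.5 with LPC. The day 7 groups covered nearly the same range. The LPC effect at day 7 was -0.06 ± 0.42 (log2, adjusted p = 0.959), and Csf1r was the only member without a call between the days under LPC (0.99 ± 0.43, adjusted p = 0.13). Without LPC day 7 mouse 3 that day effect was 1.26 with an adjusted p of 0.048.

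Cd68 encodes a glycoprotein of lysosomes and endosomes. At day 4 its FPKM was 22.7, 15.7, 21.2 and 20.5 with vehicle and 16.1, 16.1, 25.0 and 30.4 with LPC. At day 7 the values were 32.1, 24.2, 32.7 and 41.5 with vehicle and 33.0, 105, 25.5 and 54.6 with LPC. Mouse 2 of LPC day 7 was far above the rest of its group. The LPC effect at day 7 was 0.83 ± 0.34 (log2, adjusted p = 0.191). Cd68 rose between the days under LPC by 1.41 ± 0.35 (adjusted p = 0.023), a call lost without LPC day 4 mouse 1 (adjusted p = 0.0619), mouse 2 (0.0729) or mouse 3 (0.0549) and without LPC day 7 mouse 2 (0.0642, with a log2 fold change of 0.94). Of 10 other settings 5 called it, with adjusted p up to 0.0924. Both FPKM fits, the fit of only the groups compared, the muscle covariate and the replicate block did not.

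Ms4a7 encodes a membrane-spanning protein of the MS4A family found in macrophages. Its FPKM at day 4 was 1.83, 1.77, 5.0 and 5.24 with vehicle and 1.08, 1.00, 1.85 and 3.35 with LPC. Day 7 values were 14.4, 5.27, 13.2 and 7.98 with vehicle and 3.49, 46.6, 5.93 and 22.1 with LPC. Every vehicle day 7 mouse exceeded every vehicle day 4 mouse, by a narrow margin in the closest pair. The LPC effect at day 7 was 0.97 ± 0.66 (log2, adjusted p = 0.458), and between the days under LPC Ms4a7 rose by 3.48 ± 0.73 (adjusted p = 0.0122). Its vehicle day difference of 1.65 ± 0.68 (adjusted p = 0.325) was the largest of the members, and limma-voom gave 2.16 with an adjusted p of 0.0413.

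Taking the comparisons one by one, LPC at day 4 gave no called member by edgeR, against 0.139% of all genes. DESeq2 and limma-voom also called none, although they called 7% and 10.2% of all genes, and 1 member, Adgre1, had an unadjusted p below 0.05, against 19.2% of all genes. Log2 fold changes were negative for 8 members and positive for Fcgr2b and Cd68, with a median of -0.29 against 0.00 over all genes. LPC day 4 skin had lower skeletal muscle scores than vehicle skin (3.32 to 7.17 against 6.61 to 10.63). In a fit with that score as a covariate the 8 negative values were positive, at adjusted p from 0.821 to 0.98. Because the scores of the groups hardly overlapped, this fit cannot tell muscle content from LPC. The part of muscle in these values was not tested.

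LPC at day 7 gave log2 fold changes with a median of 1.31 over the members, against 0.02 over all genes, with 9 positive and 1 negative. Apart from the 3 called, 3 members had an unadjusted p below 0.05, which makes 6 of 10 against 19.7% of all genes. In Fcgr3, Fcgr4, Fcer1g and Itgam all LPC mice exceeded all vehicle mice, 4 of 10 members against 5.7% of all genes. DESeq2 called 5 members against 9.18% of all genes, and limma-voom 1 against 1.33%. A fit of only the 2 groups compared called 1 member against 0.295% of all genes, and a fit with the muscle score as a covariate 5 against 6.96%.

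Under LPC, 9 of the 10 members rose between day 4 and day 7, when 6.87% of all genes rose and 4.13% fell. All 10 had an unadjusted p below 0.05, as did 30.8% of all genes. The median log2 fold change was 2.54, against 0.03 over all genes. In Fcgr1, Fcgr3, Fcgr4, Fcer1g, Itgam and Ms4a7 all day 7 mice exceeded all day 4 mice, 6 of 10 members against 8.85% of all genes, and these 6 stayed called whichever mouse was left out. With the muscle score as a covariate 5 members and 5.7% of all genes were called: muscle scores were 3.32 to 7.17 at day 4 and 3.69 to 9.82 at day 7. The comparison shares its LPC day 7 mice with the comparison to vehicle.

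Under vehicle, no member was called between the days by edgeR or DESeq2, which called 0% and 1.51% of all genes. Limma-voom called 1 member, Ms4a7, and 13.2% of all genes, so the members' share was near that of all genes. All 10 log2 fold changes were positive, from 0.29 (Adgre1) to 1.65 (Ms4a7), with a median of 0.71 against 0.00 over all genes. Unadjusted p was below 0.05 for Fcgr3, Cd68 and Ms4a7, 3 of 10 members against 13% of all genes. Cd68 and Ms4a7 were higher in all day 7 than in all day 4 mice, 2 of 10 members against 3.45% of all genes (6.21% in either direction).

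Whether the LPC effect differed between days was tested directly. No member was called by edgeR or limma-voom, and 0% of all genes were by edgeR. Unadjusted p was below 0.05 for 6 members, against 16.9% of all genes, and DESeq2 called 5 (Fcgr1, Fcgr3, Fcgr4, Fcer1g and Itgam) against 3.71% of all genes. All 10 estimates were positive, led by Fcgr4 (3.53 ± 0.97, adjusted p = 0.16) and Fcgr1 (3.30 ± 1.07, adjusted p = 0.186). The smallest adjusted p was that of Fcgr3 (1.78 ± 0.45, adjusted p = 0.149), which was called without vehicle day 4 mouse 3 (adjusted p = 0.0273). That mouse had the lowest Fcgr3 level of all 16.

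**Figure D3:**
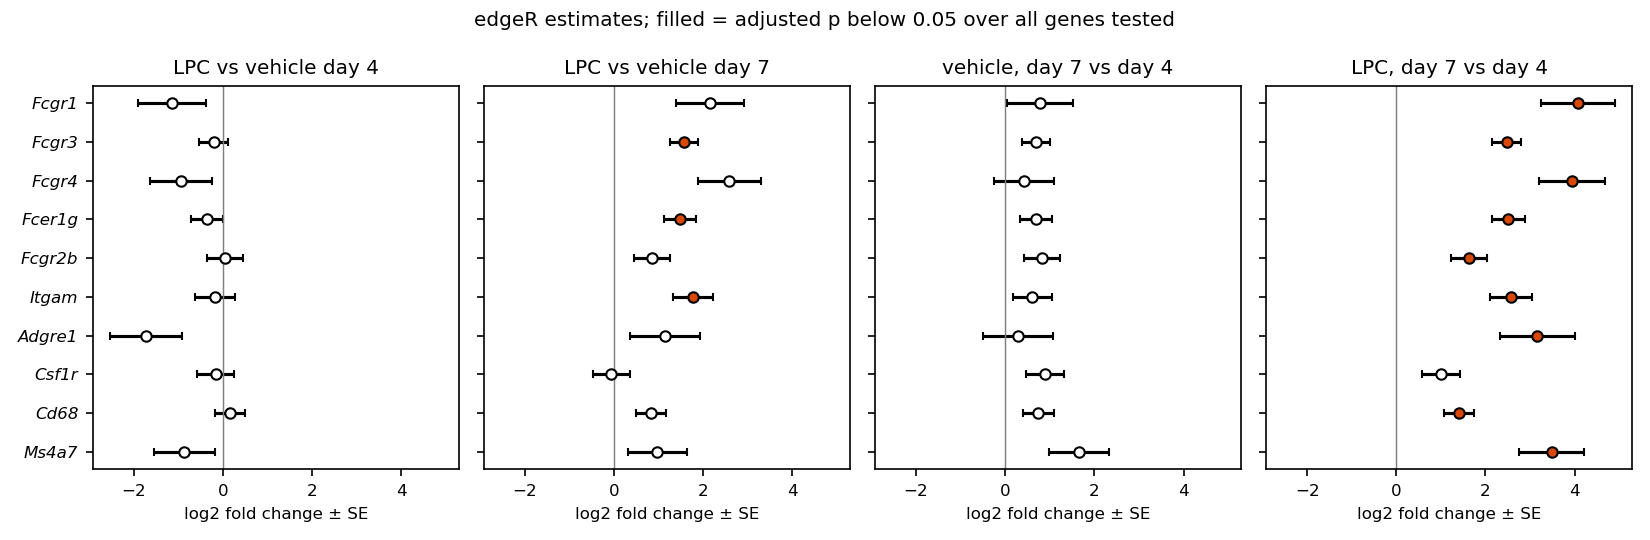
Log2 fold change of each gene with its standard error in 4 comparisons (edgeR, 4 mice per group); filled points have an adjusted p below 0.05. Filled are Fcgr3, Fcer1g and Itgam for LPC against vehicle at day 7, every gene but Csf1r for day 7 against day 4 under LPC, and none in the other 2 panels.

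LPC day 7 mice differed from each other in the same way for several members. On the CPM scale, mouse 2 exceeded all vehicle day 7 mice in 10 of 10 members and mouse 4 in 9, all but Csf1r. Mouse 1 exceeded them in 5 (Fcgr3, Fcgr4, Fcer1g, Itgam and, narrowly, Cd68) and mouse 3 in 4 (Fcgr3, Fcgr4, Fcer1g and Itgam). Mouse 1 was below all vehicle mice in Adgre1 and Ms4a7, and mouse 3 in Adgre1 and Csf1r. Relative to the vehicle day 7 mean CPM, Adgre1 was at 0.258, 3.94, 0.220 and 4.39 times in LPC mice 1 to 4, whereas Fcgr3 was at 3.49, 3.32, 2.56 and 2.51 times. Fcgr3 was thus slightly higher in mice 1 and 2, and Adgre1 far higher in mice 2 and 4 than in mice 1 and 3. By FPKM, 2 of these placements differed: Cd68 of mouse 1 lay inside the vehicle range and Csf1r of mouse 1 below it.

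Ratios between members show the same contrast per library. The FPKM ratio of Fcgr3 to Adgre1 was 44.2 and 37.1 in LPC day 7 mice 1 and 3 and 2.72 and 1.89 in mice 2 and 4. In the other 12 mice it ran from 1.33 to 15.8. The ratio of Itgam to Csf1r was 2.89, 0.890, 3.58 and 1.93 in LPC day 7 mice 1 to 4, and 0.173 to 0.712 in vehicle day 7 mice. All LPC day 7 mice had more Itgam for their Csf1r than any vehicle day 7 mouse. Mouse 2 lay inside the day 4 range, which ran from 0.221 to 1.03 with vehicle and from 0.284 to 0.803 with LPC.

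Markers of other cells moved with these differences. Neutrophils carry Fcgr3, Fcgr4, Fcer1g and Itgam. Of 13 neutrophil genes tested, 3 rose with LPC at day 7, against 2.38% of all genes: Il1r2 (log2 fold change 1.47 ± 0.32), Ly6g (3.17 ± 0.78) and Mmp9 (2.54 ± 0.67). All 13 genes had positive log2 fold changes, with a median of 2.54. Their mean log2 CPM was 7.20, 5.87, 7.08 and 5.30 in LPC day 7 mice 1 to 4 and 2.08 to 4.83 in vehicle day 7 mice. Their summed level ran from 4672 to 13418 CPM with LPC and from 282 to 5064 CPM with vehicle, and no gene of the list was at 0 in an LPC mouse. Most of that sum came from S100a8 and S100a9, so it mainly follows these genes. Their mean CPM was 3031 and 5058 in LPC day 7 mice and 1296 and 1799 in vehicle day 7 mice. Ly6g, which marks neutrophils, stood at 8.73, 2.16, 6.85 and 1.56 CPM with LPC and at 0.147 to 0.896 CPM with vehicle. The part of neutrophil transcripts in the rise of Fcgr3, Fcer1g and Itgam was not tested.

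Among 26 other macrophage genes, 1 rose with LPC at day 7, near the 2.38% of all genes that rose. It was Spi1, the gene of PU.1, a factor of myeloid cells (1.59 ± 0.30, adjusted p = 0.0169). The 26 genes had a median of 0.57. Their mean log2 CPM was 4.48, 6.34, 4.40 and 5.66 in LPC day 7 mice 1 to 4 and 4.16 to 5.04 in vehicle day 7 mice. Mice 2 and 4 were thus above and mice 1 and 3 inside the vehicle range. Muscle and adipocyte genes also ran higher in those mice, with mean log2 CPM of 2.14, 5.72, 2.92 and 7.70 for the adipocyte genes. In the fit with the muscle score as a covariate, the LPC effect at day 7 was 0.78 for Adgre1 (adjusted p = 0.354), -0.05 for Csf1r (0.958) and 0.88 for Ms4a7 (0.395). The part of adipose transcripts was not tested.

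Markers of further cells that carry Fc receptors were mostly low, except those of mast cells. NK and cytotoxic genes gave no call with LPC at day 7 among 7 tested, but all 7 log2 fold changes were positive, with a median of 1.38. Their scores were of -1.53 to 2.16 with LPC and -1.75 to 0.24 with vehicle. Their summed level was 3.26 to 50.4 CPM with LPC and 1.86 to 9.32 CPM with vehicle. Of 7 B cell genes 2 were tested and not called, both with negative log2 fold changes and a median of -0.35. The B cell gene Ms4a1 had 0, 1, 0 and 7 counts in the 4 LPC day 7 libraries and 0 in all vehicle day 7 libraries. Of 5 eosinophil genes 1 was tested and not called. Epx was at 0 in all LPC day 7 libraries, whereas Siglecf had 26 counts over the LPC day 7 libraries against 9 over the vehicle day 7 libraries, and Ccr3 had 35 against 13. Of 8 mast cell genes 0 rose and 1 fell, when 2.38% of all genes rose and 1.44% fell. The gene that fell was Ms4a2, the beta chain of the IgE receptor (-2.18 ± 0.57, adjusted p = 0.0479). All 8 log2 fold changes were negative, with a median of -0.68. The mast cell genes summed to 58.8 to 195 CPM with LPC and to 124 to 308 CPM with vehicle.

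**Figure D4:**
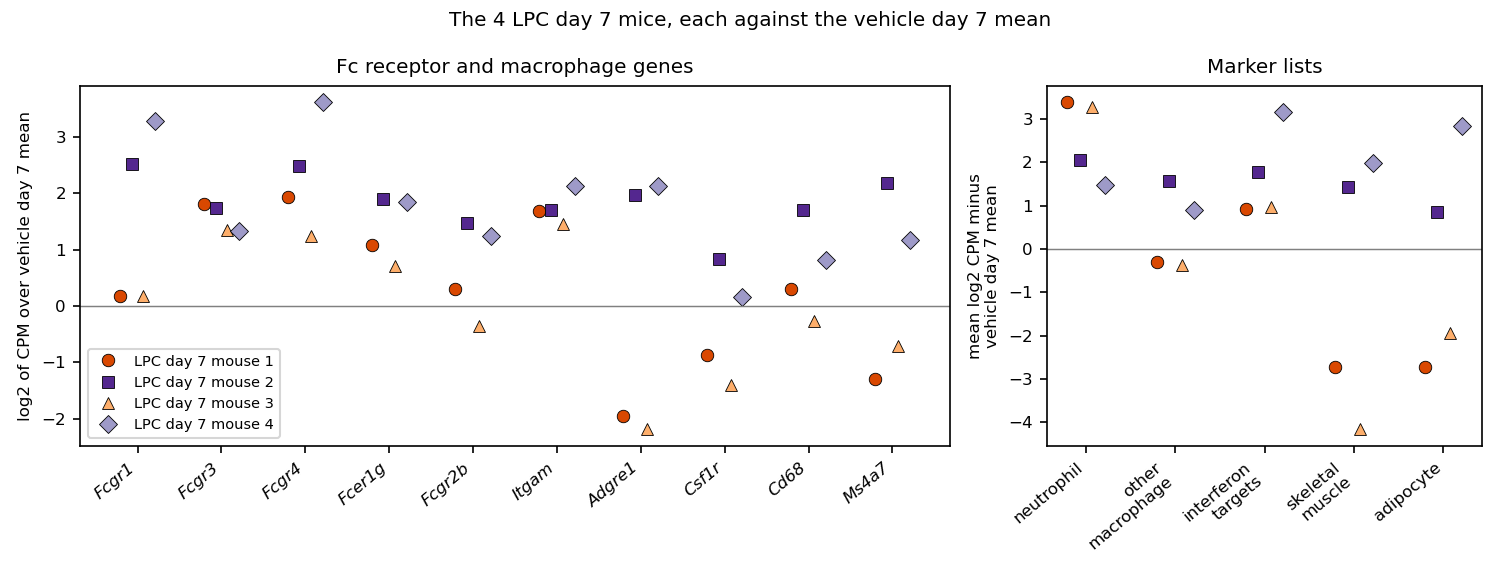
Left, log2 of each LPC day 7 mouse's CPM over the mean CPM of the 4 vehicle day 7 mice for each of the 10 genes. Right, mean log2 CPM of 5 marker lists in the same mice minus the vehicle day 7 mean; mice 1 and 3 are the highest for neutrophil genes and the lowest for Adgre1, Csf1r, Ms4a7, muscle and adipocyte genes.

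Genes listed under Fc receptor signalling were counted next, a list that also holds the surface receptor genes Lilrb4a, Pirb and Sirpa. Of these 22 genes, 7 rose and 0 fell with LPC at day 7, when 2.38% of all genes rose and 1.44% fell. Their median log2 fold change was 0.96. Lcp2, the adaptor SLP-76, rose by 1.73 ± 0.26 (adjusted p = 0.0103) and Syk, the kinase that binds the phosphorylated gamma chain, by 1.91 ± 0.38 (0.0203). Inpp5d, the phosphatase of the inhibitory receptor, also rose, by 1.13 ± 0.20 (adjusted p = 0.013). Syk was at 240.5, 110.7, 178.3 and 107.4 CPM in LPC day 7 mice 1 to 4 and at 27.1 to 61.8 CPM in vehicle day 7 mice. Between the days under LPC 16 of the 22 rose and 0 fell, with a median of 1.85, when 6.87% of all genes rose and 4.13% fell. The smallest p was that of Lcp2 (2.21 ± 0.26, adjusted p = 0.00216), then those of Inpp5d (1.41 ± 0.20, adjusted p = 0.00319) and Rac2, a GTPase of the phagocyte oxidase (2.64 ± 0.38, adjusted p = 0.00319).

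Other adaptors and receptors differed more. Tyrobp, a signalling adaptor of myeloid receptors related to the gamma chain, rose with LPC at day 7 by 1.45 ± 0.32 (adjusted p = 0.0268), and Hcst and Cd247 were not called. Of 11 other Fc receptor genes, 1 rose at day 7, Fcrlb (2.11 ± 0.44), and 2 fell, Fcamr (-0.72 ± 0.18) and Ms4a2, with a median of 0.24. Of all genes, 2.38% rose and 1.44% fell. Between the days under LPC the Fc receptor-like genes Fcrls (4.58 ± 1.28) and Fcrl5 (3.23 ± 0.91) rose, when 6.87% of all genes rose. Their start was low, with 13 counts of Fcrls and 19 of Fcrl5 over all LPC day 4 libraries. In LPC day 7 mice Fcrls ran from 0.120 to 10.95 CPM and Fcrl5 from 0.217 to 6.02 CPM. Fcrls averaged 3.86 CPM in vehicle day 4 mice and 3.51 CPM in vehicle day 7 mice. Of 9 antibody chain genes looked up, Jchain alone had values in the files used here, and it did not pass the filter on low counts.

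Genes related to the markers were measured too. Of 7 integrin genes, ligands and cytoskeletal linkers set beside Itgam, 4 rose with LPC at day 7, against 2.38% of all genes. These were Itgal, an alternative alpha chain for Itgb2 (1.82 ± 0.24, adjusted p = 0.0102), Itgb2 (1.59 ± 0.40, 0.0416), the cytoskeletal linker gene Tln1 (0.64 ± 0.15, 0.0358) and the ligand gene Icam1 (0.92 ± 0.24, 0.0468). Itgb2, the partner chain of Itgam, stood at 62.2, 109.9, 46.0 and 139.1 CPM in LPC day 7 mice 1 to 4 and at 16.9 to 39.4 CPM in vehicle day 7 mice. All LPC mice were again above all vehicle mice.

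For Csf1r, the ligand genes Csf1 and Il34 gave no call at day 7, and of 6 growth factor and receptor genes 1 rose, Csf2rb, the shared beta chain of the GM-CSF receptor (0.96 ± 0.22, adjusted p = 0.0305). Of 7 lysosomal genes set beside Cd68, 1 rose at day 7, Cd63 (0.73 ± 0.16, adjusted p = 0.0241). Over all genes, 2.38% rose at day 7 and 6.87% between the days under LPC. Between the days under LPC 4 of the 7 lysosomal genes rose, the cathepsin genes Ctsz, Ctsb and Ctss and the lysosomal membrane gene Lamp1. Of 8 Ms4a genes, 0 were called at day 7 (median 1.37) and 7 rose between the days under LPC (median 3.20), with the smallest p for Ms4a6c (3.13 ± 0.64, adjusted p = 0.0116). Adgre5, a relative of Adgre1, rose at day 7 by 0.67 ± 0.17 (adjusted p = 0.0398). In the comparisons at day 4 and under vehicle, edgeR called no gene of any of these lists.

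The levels of the members relative to each other were compared per length, by FPKM. Fcer1g was first in each group, at 37.8 ± 14.4, 28.8 ± 13.2, 58.4 ± 16.9 and 153 ± 65.6 FPKM (mean ± SD, n = 4), taking the vehicle and LPC groups of day 4 and then those of day 7. Cd68 came next in the first 3 of these groups, and Fcgr3 (60.0 ± 9.47) in LPC day 7. Ms4a7, Adgre1, Fcgr1 and Adgre1 were last in the same 4 groups. Apart from Fcer1g and the gene next to it in vehicle day 4, vehicle day 7 and LPC day 7, neighbours in this order overlapped within 1 SD of their means.

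Across the 16 libraries the closest pair of members was Fcgr3 and Itgam (Pearson r = 0.96 of log2 CPM) and the least close Itgam and Csf1r (r = 0.39). Adgre1 and Fcgr3 had r = 0.43. Among 13550 other genes, those closest to Fcgr3 included C5ar1 and Tyrobp. Itgam was closest to Lcp1, Hcls1 and Ncf4, and Fcer1g to Itgb2, Pstpip1 and Lyn. The closest to Fcgr1 were Epsti1, Slc28a2 and Sp100 and to Fcgr4 Hcls1, Oas3 and Slfn2. Fcgr2b was closest to Ms4a6d, Lgmn and Gsdmd, Cd68 to Cyba, Grn and Lgmn, and Ms4a7 to Pirb, Fyb and Pira1. Adgre1 was closest to Pld4, Slamf9 and H2-M3 and Csf1r to Rgs10, Vim and Ptpro. All these r lay between 0.94 and 0.98, and the points share groups, tissue make-up and libraries.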

How the data were processed

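RNA-seq libraries were made from the skin of 16 mice, 1 per mouse, and groups and mouse numbers follow the sample titles. Per the labels' protocols, RNA was extracted with TRIpure and sequenced on a BGISEQ-500; Bowtie2 alignment was to GRCm38 and RSEM gave the gene values. Tool versions and the strand setting of the counting were not found in the labels. The deposited files hold the authors' expected count per gene, which can be fractional where reads match several genes, and the authors' FPKM value. Genes a file does not list were set to 0.

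Expected counts were rounded. The filterByExpr function of edgeR 4.0.16 (in R 4.3.3) retained 15782 genes and removed 3657. All 16 libraries entered 1 quasi-likelihood fit with TMM scaling (factors 0.836 to 1.107) and group means, with 12 residual degrees of freedom and a biological coefficient of variation of 35%. The SE of a log2 fold change is its size divided by the square root of edgeR's F statistic. The threshold was a Benjamini-Hochberg adjusted p of 0.05 over all genes tested. CPM was computed with TMM-scaled totals, and log2 CPM with a prior count of 2. A list's score is the mean log2 CPM of its tested genes. Within groups, no 2 libraries agreed within sampling noise (chi-square per gene of at least 16.16). The test was checked on simulated counts.

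Members, 24 gene lists and tests were chosen with earlier results of these data known. Genes named are the members, up to 4 genes per list with the smallest p in the comparison described, the called genes of lists with at most 6, and the 3 genes with the highest Pearson r to each member. Some genes that this rule names are not reported here. Alternatives were median-of-ratios scaling; no filter; a filter of 1 CPM in 8 or more libraries; DESeq2 1.42.0; voom with sample weights (limma 3.58.1); limma on log2(FPKM + 0.1) and log2(FPKM + 1); only the groups compared; the muscle score as a covariate; a replicate block; and each mouse left out. Promoter windows came from RefSeq, and 50-base windows were compared over GENCODE transcripts.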

Additional observations from a re-analysis of the deposited data

How the results depend on the processing

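Counts of called members are given for the alternatives in which they moved by over 1.5 times, and as ranges for leaving out 1 mouse. For LPC at day 4 (0 called), a fit of only the groups compared called 1, near the share of 8.67% over all genes. For LPC at day 7 (3 called), DESeq2 and the muscle covariate called 5, and limma-voom, a fit of only the groups compared and the replicate block 1 each; leaving out 1 mouse gave 0 to 2. Under vehicle, day 7 against day 4 (0 called), limma-voom called 1. Under LPC (9 called), the muscle covariate called 5, and leaving out 1 mouse gave 6 to 10, which stayed within 1.5 times. For the difference of the LPC effect between days (0 called), DESeq2 called 5, and leaving out 1 mouse gave 0 to 1. The direction of some uncalled members turned. With the muscle covariate, log2 fold changes at day 4 were 1.06 for Fcgr1, 0.32 for Fcgr3, 0.84 for Fcgr4, 0.55 for Fcer1g, 0.68 for Itgam, 0.48 for Adgre1, 0.59 for Csf1r and 0.20 for Ms4a7. For the difference between days that covariate gave -0.63 for Csf1r, -0.22 for Fcgr2b and -0.0057 for Cd68, and limma on log2(FPKM + 0.1) and log2(FPKM + 1) gave -0.0684 and -0.0653 for Csf1r. Csf1r at day 7 was 0.0142 by limma-voom. Leaving out 1 mouse gave -0.25 to 0.45 for Fcgr2b, -0.48 to 0.12 for Fcgr3, -0.67 to 0.27 for Itgam and -0.0398 to 0.30 for Cd68 at day 4, -0.56 to 0.24 for Csf1r at day 7, -0.0652 to 0.80 for Fcgr4 and -0.0041 to 0.62 for Adgre1 between the days under vehicle, and -0.37 to 0.41 for Csf1r in the difference between days. The cause of these shifts was not tested. The mice share only a replicate number in the labels. Deviations of same-numbered mice from their group means correlated at -0.596 to 0.148 at day 7, -0.518 to 0.113 between the days under vehicle and -0.159 to 0.0536 under LPC, but at 0.0994 to 0.539 at day 4, where 3 of 4 pairs were highest for their own number. The numbers were not used to pair mice, and with the replicate block 7 members were called between the days under LPC. Over all genes, 604 were called at day 7, against 1448 by DESeq2, 210 by limma-voom, 45 in a fit of only the groups compared, 1098 with the muscle covariate and 351 with the block; between the days under LPC 1736 were called, against 3073 by DESeq2, 900 with the covariate and 901 with the block. At day 4, 22 were called, against 1104 by DESeq2, 1606 by limma-voom and 1333 in a fit of only the groups compared. Under vehicle 0 were called, against 238 by DESeq2 and 2086 by limma-voom, and in the difference between days 0, against 585 by DESeq2. The limma fit on log2(FPKM + 0.1) moved the median of all genes by -0.12 at day 7. With 4 mice per group, standard errors at day 7 were largest for Adgre1, Fcgr1 and Fcgr4 (0.78, 0.76 and 0.70 on the log2 scale). Members had at least 25 expected counts in every library.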

Other observations

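Interferon targets and cytotoxic genes were also measured in these libraries. Of 12 targets of interferon gamma and type I interferons, 2 rose with LPC at day 7, against 2.38% of all genes: Gbp2 (log2 fold change 1.83 ± 0.45, adjusted p = 0.0399 by edgeR) and Isg15 (2.49 ± 0.66, adjusted p = 0.0484). All 12 were positive, and their median was 1.92. Gbp2, a guanylate-binding protein, stood at 100.9, 80.8, 90.2 and 203.4 CPM in LPC day 7 mice 1 to 4 and at 20.4 to 51.2 CPM in vehicle day 7 mice. Cxcl9, a chemokine induced by interferon gamma, rose between the days under LPC (4.08 ± 1.08, adjusted p = 0.0302) and stood at 2.71, 14.7, 1.79 and 46.8 CPM in LPC day 7 mice. Mice 2 and 4 were the highest for Cxcl9, as they were for Fcgr1.

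The granzyme genes Gzma (6.52 ± 1.78, adjusted p = 0.0329) and Gzmb (3.56 ± 0.94, adjusted p = 0.0297) rose between the days under LPC. Their start was low, with 4 counts of Gzma and 56 of Gzmb over all LPC day 4 libraries. Gzma stood at 0.181, 6.63, 0.272 and 14.1 CPM in LPC day 7 mice 1 to 4 and at 0 to 1.74 CPM in vehicle day 7 mice. Cd207, the Langerhans cell lectin langerin, fell by 2.26 ± 0.37 on the log2 scale between the days under LPC (adjusted p = 0.00445), as did the class II genes H2-Aa (-1.07 ± 0.23) and H2-Ab1 (-0.93 ± 0.25). Of the 11 dendritic and Langerhans cell genes these 3 fell and 1 rose, when 4.13% of all genes fell and 6.87% rose. The gene that rose was Clec9a (2.74 ± 0.84, adjusted p = 0.0488), a receptor of cross-presenting dendritic cells. It was low, with 9 counts over all LPC day 4 libraries and 61 over those of day 7. Log2 fold changes were positive for 4 of the 11 genes and negative for 7. Xcr1, of the same list, averaged 1.51 CPM at LPC day 4 and 0.974 CPM at LPC day 7. Fcgrt, which encodes the neonatal Fc receptor and was singled out after its values were seen, stood at 29.5, 156, 24.1 and 132 CPM in LPC day 7 mice 1 to 4 and at 44.8 to 77.8 CPM in vehicle day 7 mice.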
